A study of Homo sapiens with 12 samples.

Results

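The 4 libraries that the labels number as biological replicate 2 were compared with the 4 numbered replicate 1, out of 12 libraries in the series. All came from wild-type cardiomyocytes derived from RUES2, an established human embryonic stem cell line, so every sample is of 1 line. Day 50 cells in RPMI with B27 and insulin had spent 3 days on an electrospun scaffold, either 8% PVA (polyvinyl alcohol, which does not conduct) or 9.75% PEDOT:PSS/PVA (a conducting polymer blend, called PEDOT here). Each replicate number gave 2 libraries on PVA and 2 on PEDOT, so both scaffolds stand equally on each side, and the scaffold was a term of the model. The labels call the 2 libraries of a scaffold technical replicates, and they do not say whether a replicate number marks a separate differentiation, thaw or culture. Replicate 3 entered the fit to estimate the spread, and with it the gene filter, the scaling factors and the scaffold term. Its levels are given for orientation. Each replicate number is a single biological replicate, so p-values measure the spread between these sums of libraries and not between differentiations in general.

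Directed differentiation of pluripotent cells through mesoderm gives mostly cardiomyocytes, which contract through the sarcomere and make much of their ATP in mitochondria. The same mesoderm also gives stromal, smooth muscle, epicardial and endothelial cells, and preparations can carry cells of other germ layers. Fibroblast-like cells are the main makers of collagens and other matrix proteins in heart tissue. In bulk RNA, fewer cells of a type and less RNA per cell cannot be told apart, so every level below is that of the whole preparation.

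Library totals for the 8 libraries were 19.1 to 30.2 M assigned counts. Levels are given in CPM (counts scaled to a common library total, with a TMM factor). A level with no library named is the mean of a replicate's PVA and PEDOT sums, each sum adding 2 technical libraries. Differences are log2 of replicate 2 over replicate 1 ± SE from edgeR's quasi-likelihood test on sums of technical libraries, so a negative value is lower in replicate 2. Of 22262 genes tested, 6361 (28.6%) passed an adjusted p of 0.05, 2901 higher in replicate 2 (13%) and 3460 lower (15.5%). The 13% and 15.5% are the shares to set beside every count of list members below. The split was uneven at large sizes: 150 genes were at least 4-fold higher and 622 at least 4-fold lower. The median log2 difference over all genes tested was -0.00493. The 4 libraries of one replicate lay wholly above or below the 4 of the other in 7275 genes (32.7%). The cardiomyocyte marker TNNT2, cardiac troponin T, was abundant in all 8 libraries (355 to 589 CPM), and the pluripotency factors POU5F1 and NANOG were too low to be tested.

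**Figure D1:**
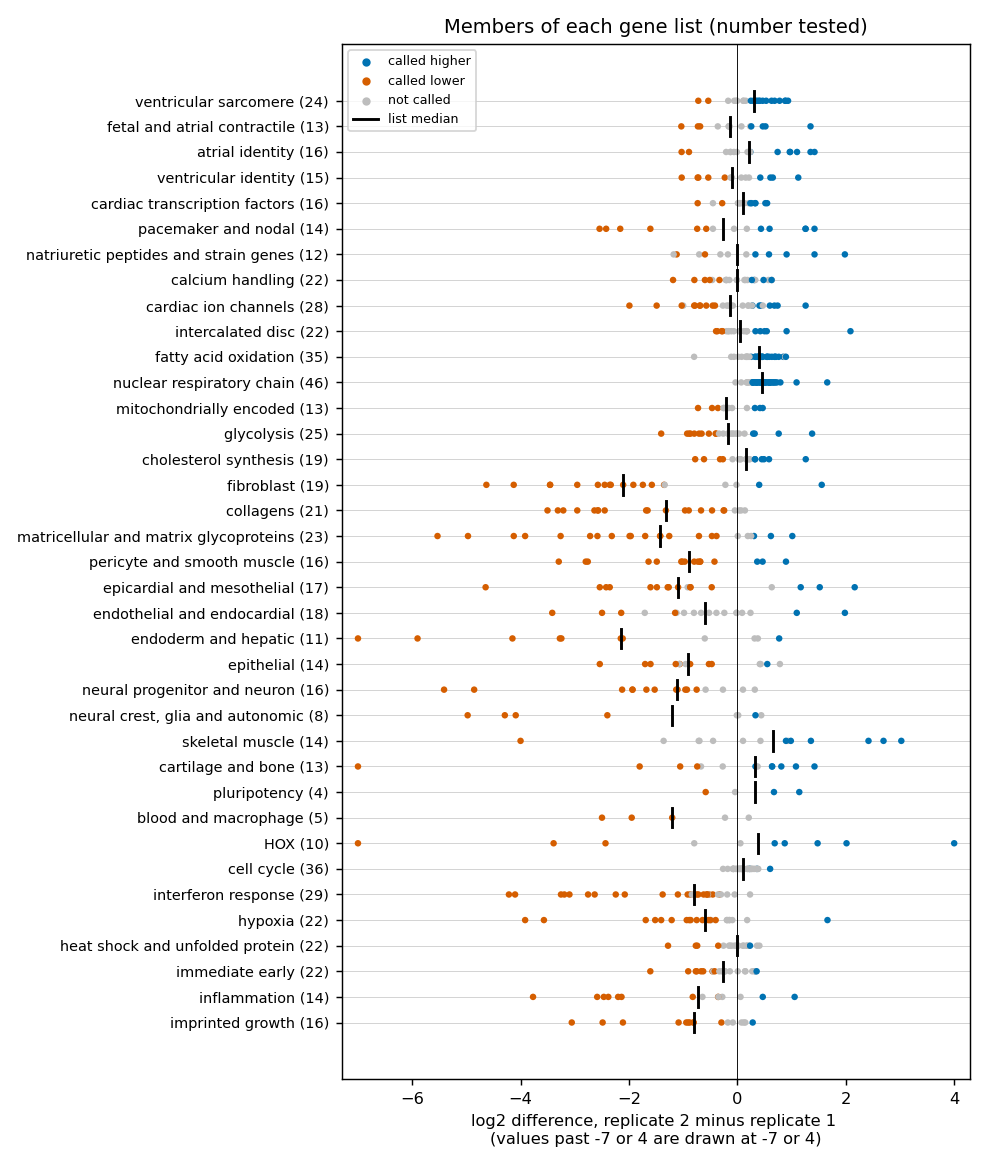
Each point is 1 tested member of a gene list (number tested in brackets), placed by its log2 difference between replicate 2 and replicate 1; blue and orange points passed the test, grey points did not, and black bars are list medians. The fibroblast, collagen and other stromal lists lie mostly left of 0 (fibroblast median -2.11), and the nuclear respiratory chain and fatty acid oxidation lists lie mostly right of it (medians 0.45 and 0.40).

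Most adult and ventricular sarcomere genes were higher in replicate 2, and MYH7 and MYL2 were lower. The list of adult and ventricular sarcomere genes had 15 higher and 2 lower (MYH7 and MYL2) of 24 tested, against 13% and 15.5% of all genes, with a median of 0.32. In 14 of the 24 all replicate 2 libraries lay above all replicate 1 libraries, which held for 16.1% of all genes. TNNC1, cardiac troponin C, rose from 370.2 to 708 CPM (log2 0.93 ± 0.10, adjusted p = 5.3e-06), and MYOM2, an M-band protein, from 175 to 325 CPM (log2 0.89 ± 0.08, adjusted p = 6.3e-07). MYBPC3, the cardiac myosin-binding protein, was 0.69 ± 0.09 higher on the log2 scale. TTN, which encodes titin, was at 37621 CPM in replicate 1 and 48252 CPM in replicate 2 (log2 0.35 ± 0.12, adjusted p = 0.033), and its libraries overlapped. Its call was lost without PEDOT replicate 1 library 2, at 0.35 (adjusted p = 0.0668), without PVA replicate 2 library 2, at 0.29 (adjusted p = 0.105), and without both PEDOT libraries of replicate 2, at 0.24 (adjusted p = 0.203). ACTC1, cardiac actin, differed by -0.02 ± 0.13 and did not pass. The fetal and atrial contractile list was called in both directions (median -0.14). Of 13 tested, 4 were higher (MYH6, MYL7, MYL9 and TPM2) and 3 lower (ACTA2, TAGLN and CNN1). The lower ones are also on the pericyte and smooth muscle list, of which LMOD1, SMTN and DES were higher. Each of 12 refits left out 1 of the 4 sums or 8 libraries, and MYL9 lost its call in 5 of them (adjusted p up to 0.297, without PVA replicate 1).

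The light and heavy chain isoforms moved apart. MYL7, the atrial regulatory light chain, read 866 and 1056 (PVA) and 1408 and 1750 CPM (PEDOT) in replicate 1, and 3048 and 2991 (PVA) and 3354 and 3314 CPM (PEDOT) in replicate 2. Every replicate 2 library was above every replicate 1 library, and the difference passed (log2 1.35 ± 0.13, adjusted p = 1.3e-06). MYL2, its ventricular counterpart, read 235 and 278 (PVA) and 508 and 528 CPM (PEDOT) in replicate 1, and 259 and 239 (PVA) and 263 and 258 CPM (PEDOT) in replicate 2. The PEDOT libraries of replicate 1 stood above the other 6, and the fitted difference was small (log2 -0.54 ± 0.16, adjusted p = 0.017). Without those PEDOT libraries it was -0.09 (adjusted p = 0.545), and without PEDOT replicate 1 library 3, PVA replicate 1 library 3 or PVA replicate 2 library 3 it was -0.50 (adjusted p = 0.0535), -0.49 (adjusted p = 0.0547) and -0.49 (adjusted p = 0.0721). As a share of the counts of both light chains, MYL2 was 22.8% ± 2.42 in replicate 1 and 7.42% ± 0.239 in replicate 2 (SD, n = 2 sums, not corrected for length). MYH7, the slow beta myosin heavy chain, was 2.83% of MYH6 and MYH7 counts on PVA and 8.70% on PEDOT in replicate 1, and 1.69% and 3.21% in replicate 2. Its own difference (log2 -0.72 ± 0.20, adjusted p = 0.015) was -0.10 (adjusted p = 0.612) without the PEDOT libraries of replicate 1 and -0.70 (adjusted p = 0.054) without library 3 of them alone, and it did not pass without the PVA or the PEDOT libraries of replicate 2 (adjusted p = 0.118 and 0.175). DESeq2 called neither MYL2, at -0.53 (adjusted p = 0.338), nor MYH7, at -0.71 (adjusted p = 0.501). MYH6, the fast alpha chain, was at 14830 and 15760 (PVA) and 14570 and 15850 CPM (PEDOT) in replicate 1, and 21100 and 22200 (PVA) and 20780 and 20570 CPM (PEDOT) in replicate 2 (log2 0.47 ± 0.10, adjusted p = 0.00293). These myosin genes are near-identical neighbours and reads that match both were not counted, so their split is uncertain. TNNI3, the adult troponin I that replaces fetal TNNI1, made up 1.51% ± 0.568 of troponin I counts in replicate 1 and 2.58% ± 0.212 in replicate 2. An exact permutation test of 2 sums against 2 cannot give a p under 0.333, so shares carry no test.

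**Figure D2:**
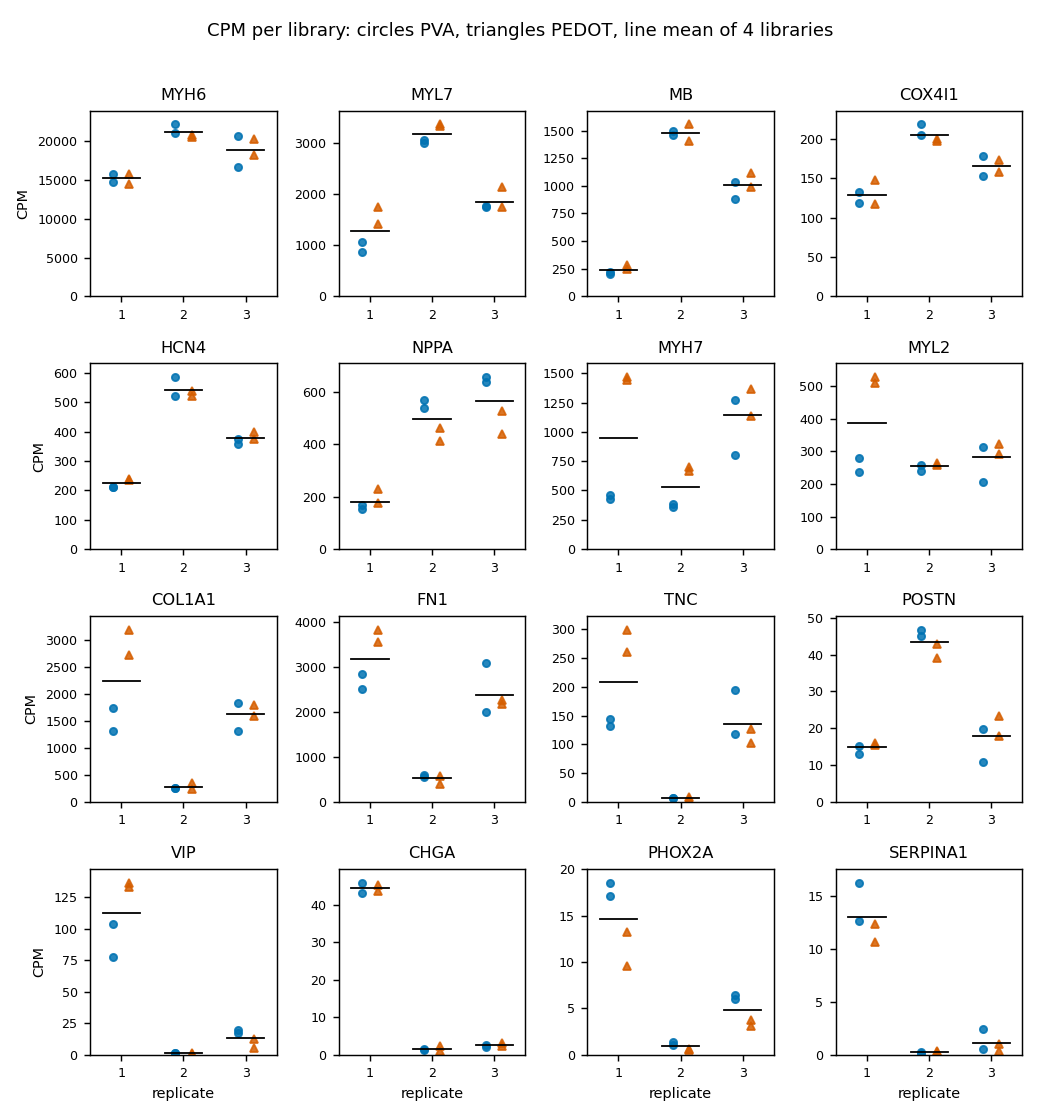
CPM in each library against replicate number for 16 genes; blue circles are PVA libraries, orange triangles PEDOT libraries and black lines the mean of the 4 libraries. MB, MYL7 and HCN4 separate replicate 2 above replicate 1, the matrix genes COL1A1, FN1 and TNC separate it below, and MYL2 in replicates 1 and 2 is highest in the PEDOT libraries of replicate 1 (508 and 528 CPM).

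Genes of atrial, nodal and ventricular identity did not move as blocks. The atrial list had 7 higher and 2 lower of 16 tested (median 0.21). The ventricular list had 4 higher (IRX4, IRX1, IRX2 and GJA1) and 5 lower (MYL2, MYH7, HAND1, LBH and KCNJ2) of 15 tested (median -0.10, and 0.0175 without PEDOT replicate 1 library 3), and the pacemaker and nodal list 5 higher (HCN4, HCN2, TBX3, CACNA1G and RGS6) and 6 lower of 14 tested (median -0.26, and 0.139 over members with a mean of 5 CPM or more). NPPA, atrial natriuretic peptide, read 152 and 169 (PVA) and 177 and 228 CPM (PEDOT) in replicate 1, and 540 and 568 (PVA) and 411 and 464 CPM (PEDOT) in replicate 2 (log2 1.42 ± 0.14, adjusted p = 1.8e-06). HCN4, the main pacemaker channel, read 213 and 212 (PVA) and 236 and 238 CPM (PEDOT) in replicate 1, and 586 and 523 (PVA) and 522 and 537 CPM (PEDOT) in replicate 2 (log2 1.26 ± 0.09, adjusted p = 3.5e-08), with no overlap. TBX3, a repressor that marks the conduction system, was 1.42 ± 0.10 higher. SHOX2 and TBX18, transcription factors of the sinus node, went the other way at -2.16 ± 0.11 and -2.42 ± 0.14, and TBX18 is also an epicardial gene. Among ventricular factors IRX4 and IRX1 were higher by 0.61 ± 0.09 and 1.12 ± 0.16, while HAND1, a left ventricular factor, was lower, at -0.73 ± 0.12. The core factors NKX2-5 and TBX20 were both higher, at 0.52 ± 0.08 and 0.55 ± 0.08, and the cardiac transcription factor list had 6 higher and 2 lower (HAND1 and MYOCD) of 16 tested (median 0.11). Among the members named by call, losses in the 12 refits were LBH in 7 (adjusted p up to 0.492, without PEDOT replicate 1 library 3), GJA1 in 2 (adjusted p up to 0.239, without PVA replicate 1), KCNJ2 in 1 (adjusted p up to 0.0918, without PEDOT replicate 2), MYOCD in 2 (adjusted p up to 0.0917, without PVA replicate 2) and RGS6 in 1 (adjusted p up to 0.262, without PVA replicate 2).

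Ion channel and calcium genes were called in both directions. All genes had 13% called higher and 15.5% lower. Channel genes had 7 higher and 10 lower of 28 tested (median -0.14), and calcium handling genes 4 higher (RYR2, ATP2A2, HRC and SRL) and 5 lower of 22 tested (median -0.01). KCNK3, a background potassium channel, fell from 47 to 16.7 CPM (log2 -1.49 ± 0.10, adjusted p = 4.2e-08), and SCN4B, a sodium channel beta subunit, from 11 to 2.76 CPM (log2 -1.99 ± 0.16, adjusted p = 1.9e-07). The IP3 receptors ITPR2 and ITPR1 were lower, at -1.19 ± 0.11 and -0.79 ± 0.11, while the sarcoplasmic reticulum genes ATP2A2 (the SERCA pump), RYR2 (the release channel) and HRC (a store calcium-binding protein) were higher by 0.48 ± 0.10, 0.31 ± 0.09 and 0.63 ± 0.09. RYR2 was 0.25 (adjusted p = 0.0782) without the PEDOT libraries of replicate 1 and 0.24 (adjusted p = 0.122) without those of replicate 2. PLN, the inhibitor of the pump, differed by -0.01 ± 0.10 and did not pass. GJA5, the gap junction gene of atrial and conduction myocytes, was 2.39 CPM in replicate 1 and 10.1 CPM in replicate 2 (log2 2.09 ± 0.15, adjusted p = 8e-08). The intercalated disc list had 6 higher and 4 lower (CTNNA3, DSC2, DSG2 and NRAP) of 22 tested (median 0.05), JUP (plakoglobin) and LIMS2 among the higher ones at 0.50 ± 0.08 and 0.54 ± 0.08. Of the members named by call, the 12 refits lost SRL in 2 (adjusted p up to 0.156, without PVA replicate 2), CTNNA3 in 8 (adjusted p up to 0.33, without PEDOT replicate 1), DSC2 in 3 (adjusted p up to 0.155, without PVA replicate 2) and NRAP in 5 (adjusted p up to 0.425, without PEDOT replicate 1).

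Most nuclear genes of the respiratory chain and of fatty acid oxidation were higher in replicate 2. Respiratory chain subunits had 39 higher and 0 lower by edgeR (0 at an unadjusted p under 0.05 and 0 in DESeq2) of 46 tested, against 13% of all genes called higher, with a median of 0.45, 0.57 on PVA and 0.30 on PEDOT. The libraries of 38 subunits did not overlap and were higher, against 16.1% of all genes. Fatty acid oxidation genes had 23 higher and 0 lower by edgeR (1 at an unadjusted p under 0.05 and 0 in DESeq2) of 35 tested, with a median of 0.40. COX4I1, a nuclear-encoded subunit of cytochrome c oxidase, read 118 and 133 (PVA) and 118 and 147 CPM (PEDOT) in replicate 1, and 218 and 205 (PVA) and 199 and 197 CPM (PEDOT) in replicate 2 (log2 0.66 ± 0.08, adjusted p = 1.9e-05), and no library overlapped. ATP5MC1 of ATP synthase and NDUFA4 were higher by 0.79 ± 0.10 and 0.68 ± 0.09. In fatty acid oxidation ACSL1, which activates fatty acids, was 0.64 ± 0.08 higher, and SLC25A20, the carnitine carrier, 0.71 ± 0.10 higher. The 13 protein-coding genes of the mitochondrial genome did not share this. Of 13 tested, 3 were higher (MT-ND6, MT-CO1 and MT-CO3) and 3 lower (MT-ND1, MT-ND2 and MT-ND3). Their median was -0.20, and 0.0123 without the PVA libraries of replicate 2. MT-CO1 was higher by 0.42 ± 0.11 and MT-ND2 lower (-0.73 ± 0.09). Without the PVA libraries of replicate 2 MT-CO1 was 0.37 (adjusted p = 0.069). Calls of the other members were lost for MT-CO3 in 3 (adjusted p up to 0.112, without PEDOT replicate 2), MT-ND1 in 2 (adjusted p up to 0.318, without PVA replicate 2) and MT-ND3 in 2 (adjusted p up to 0.232, without PVA replicate 2) of the 12 refits. These 13 genes together took 3.95% to 4.19% of counts in replicate 1 and 4.76% to 5.21% in replicate 2. Mitochondrial rRNA and tRNA genes are not in these shares.

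Transcript length moved with the same contrast. Among 11010 protein-coding genes at 5 CPM or more, the median difference was 0.24 for exon lengths under 1 kb, 0.20 for 1 to 2 kb and -0.04 over 8 kb. Of 77 cytosolic ribosomal protein genes (median exon length 3002 bases), 49 were called higher, against 13% of all genes, with a median of 0.30. Other genes of the middle exon lengths of the respiratory chain list (1607 to 4997 bases, 4239 genes) had a median of 0.09, and 22.1% of them were called higher. For fatty acid oxidation the corresponding genes had a median of 0.04. Across the protein-coding genes, Spearman's rho between the difference and exon length was -0.20, and with GC content 0.19, given as a description. How far length bears on the mitochondrial lists was not tested.

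Oxygen storage stood out among muscle genes. MB, myoglobin, read 204 and 224 (PVA) and 244 and 286 CPM (PEDOT) in replicate 1, and 1461 and 1500 (PVA) and 1555 and 1404 CPM (PEDOT) in replicate 2. This was a 6.19-fold difference (log2 2.63 ± 0.10, adjusted p = 1e-10), and replicate 3 averaged 1009 CPM. Creatine kinase CKM, from the same tissue programme, differed by 0.10 ± 0.09 and did not pass.

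Glycolytic and hypoxia-responsive genes leaned the other way. Glycolysis genes had 4 higher (PFKM, PGAM2, ENO3 and LDHB) and 10 lower of 25 tested (median -0.17). Hypoxia genes had 1 higher (ADM) and 14 lower of 22 tested (median -0.59). All replicate 2 libraries lay below all replicate 1 libraries in 11 of 22 hypoxia genes, against 16.6% of all genes. For glycolysis this held in 4 of 25, near the share of all genes. They lay above in 2 glycolysis genes and 1 hypoxia gene, against 16.1% of all genes. SLC2A1, the basal glucose transporter, was lower (log2 -1.41 ± 0.19, adjusted p = 5.6e-05, and -0.87 without the PVA libraries of replicate 2). Its technical libraries were uneven, at 377 and 264 (PVA) and 183 and 375 CPM (PEDOT) in replicate 1. In replicate 2 they read 57.8 and 93.9 (PVA) and 180 and 151 CPM (PEDOT). ALDOC was lower too (-0.71 ± 0.10), while the muscle isoforms PFKM and PGAM2 were higher at 0.76 ± 0.08 and 1.38 ± 0.10. NDRG1 and P4HA2, both induced by low oxygen, were lower at -1.69 ± 0.10 and -1.21 ± 0.09. ADM, adrenomedullin, was the exception, rising from 41.9 to 132 CPM (log2 1.66 ± 0.09, adjusted p = 2.3e-09). By scaffold, the hypoxia list's median was -0.90 on PVA and -0.32 on PEDOT, and that of glycolysis -0.43 and -0.02. No test was made of these medians. Among the glycolysis calls, refits lost ENO3 in 4 (adjusted p up to 0.474, without PVA replicate 1) and LDHB in 6 (adjusted p up to 0.656, without PVA replicate 2).

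Most stromal and matrix genes fell. The fibroblast list had 2 higher (POSTN and S100A4) and 14 lower of 19 tested (median -2.11), with 4 of 23 genes too low to test. Collagens had 0 higher by edgeR (0 at an unadjusted p under 0.05 and 0 in DESeq2) and 17 lower of 21 tested (median -1.32), and matricellular and matrix glycoproteins 3 higher (ELN, FBN2 and LOXL1) and 17 lower of 23 tested (median -1.43). Among the higher members, the 12 refits lost the calls of S100A4 in 8 (adjusted p up to 0.362, without PEDOT replicate 1), ELN in 5 (adjusted p up to 0.28, without PEDOT replicate 1) and FBN2 in 3 (adjusted p up to 0.175, without PVA replicate 1). COL1A1, the alpha 1 chain of type I collagen, read 1319 and 1737 (PVA) and 2728 and 3192 CPM (PEDOT) in replicate 1, and 266 and 266 (PVA) and 235 and 348 CPM (PEDOT) in replicate 2. No library of replicate 2 reached any of replicate 1, and the difference passed (log2 -2.95 ± 0.17, adjusted p = 5.2e-09). In the same direction COL3A1, the chain of type III collagen, went from 1647 to 294 CPM (-2.45 ± 0.13), and COL15A1, a basement membrane collagen, from 137 to 12 CPM (-3.50 ± 0.17). FN1, fibronectin, read 2515 and 2852 (PVA) and 3568 and 3834 CPM (PEDOT) in replicate 1, and 595 and 563 (PVA) and 400.1 and 582 CPM (PEDOT) in replicate 2 (log2 -2.58 ± 0.14, adjusted p = 4.2e-09). TNC, tenascin C, a glycoprotein of developing and wounded tissue, dropped from 210.1 to 6.56 CPM (log2 -4.97 ± 0.26, adjusted p = 2.3e-09).

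Small proteoglycans and matrix enzymes followed. LUM (lumican) was at 41.1 and 2.24 CPM, DCN (decorin) at 27.1 and 2.29 CPM, and THBS2 (thrombospondin 2) at 42 and 2.35 CPM in replicates 1 and 2. LOX, the enzyme that crosslinks collagen, fell from 161 to 10.5 CPM (log2 -3.92 ± 0.26, adjusted p = 2.6e-08). FAP, a protease of activated fibroblasts, was 29.3 CPM in replicate 1 and 1.16 CPM in replicate 2 (-4.63 ± 0.20), and DDR2, a collagen receptor, 47.1 and 9.23 CPM. Replicate 3 was close to replicate 1 for several of these, with COL1A1 at 1630.1, FN1 at 2375 and DDR2 at 44.5 CPM.

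POSTN ran against its list. This gene, which encodes periostin and is used as a marker of activated fibroblasts, read 12.9 and 15.1 (PVA) and 15.3 and 16 CPM (PEDOT) in replicate 1, and 46.7 and 45.1 (PVA) and 39 and 42.9 CPM (PEDOT) in replicate 2 (log2 1.56 ± 0.13, adjusted p = 2.2e-07). Replicate 3 averaged 17.8 CPM, so replicate 2 was the high one. The fibroblast receptor PDGFRA and the transcription factor TWIST1 did not pass, at -0.22 ± 0.13 and -0.02 ± 0.20.

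Together the 76 genes of the fibroblast, collagen, matrix and pericyte lists took 1.66% to 2.41% of counts in the libraries of replicate 1, 0.730% to 0.824% in replicate 2 and 1.57% to 1.87% in replicate 3. The 37 genes of both contractile lists took 7.71% to 9.37%, 9.63% to 11.7% and 10.2% to 11.1% of counts. The 2 sets overlap, as ACTA2, TAGLN and CNN1 are in both. The first set also holds DES, which is shared with cardiomyocytes. How far the stromal share bears on the contractile and mitochondrial differences was not tested.

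Mural, epicardial and endothelial markers differed in how far they moved. Pericyte and smooth muscle genes had 3 higher (LMOD1, SMTN and DES) and 13 lower of 16 tested (median -0.88). MYH11, smooth muscle myosin, fell from 47.6 to 4.86 CPM (log2 -3.30 ± 0.11, adjusted p = 4.9e-11), MYLK, the kinase that activates it, from 191 to 27.5 CPM, and PDGFRB, the pericyte growth factor receptor, from 32.7 to 4.70 CPM. DES, an intermediate filament shared with cardiomyocytes, was higher (0.90 ± 0.10). Epicardial and mesothelial genes had 3 higher (UPK1B, ITLN1 and PODXL) and 12 lower of 17 tested (median -1.09). WT1, the epicardial transcription factor, went from 62.4 to 29.3 CPM (-1.09 ± 0.09) and LRRN4 from 138 to 57 CPM (-1.29 ± 0.11), whereas ITLN1, a lectin made by mesothelium, rose from 10.4 to 46.3 CPM (log2 2.16 ± 0.11, adjusted p = 1.6e-09). Of the endothelial markers, PECAM1 was at 0.550 and 0.303 CPM and CDH5 was at 0.340 and 0.174 CPM, neither passing. The endothelial and endocardial list had 2 higher (NPR3 and ENG) and 4 lower (EGFL7, ERG, CDH11 and SOX18) of 18 tested. That was 11.1% and 22.2%, against 13% and 15.5% of all genes, with medians of 0.07 on PVA and -0.75 on PEDOT. SOX18 had only 26 counts over the 4 libraries of replicate 1 and 2 over those of replicate 2. Calls were lost in the refits for UPK1B in 9 (adjusted p up to 0.312, without PEDOT replicate 1) and SOX18 in 3 (adjusted p up to 0.106, without PEDOT replicate 1), SOX18 having been tested in 10 of the 12. CDH5 passed without PVA replicate 2 library 3, at -2.94 (adjusted p = 0.0166).

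Many neuropeptide, secretory granule and autonomic transcripts of replicate 1 were far lower in replicate 2. VIP, vasoactive intestinal peptide, read 104 and 77.9 (PVA) and 133 and 137 CPM (PEDOT) in replicate 1, and 1.42 and 1.48 (PVA) and 0.302 and 1.57 CPM (PEDOT) in replicate 2. The groups were far apart, with the largest decrease among tested genes of a mean of 5 CPM or more with separated libraries (log2 -6.60 ± 0.31, adjusted p = 6.8e-10). CHGA, the granule protein chromogranin A, read 43.3 and 45.9 (PVA) and 43.8 and 45.3 CPM (PEDOT) in replicate 1, and 1.37 and 1.18 (PVA) and 2.20 and 0.962 CPM (PEDOT) in replicate 2 (log2 -4.98 ± 0.14, adjusted p = 8.6e-12). PHOX2A, a determinant of autonomic neurons, read 17.1 and 18.6 (PVA) and 9.56 and 13.2 CPM (PEDOT) in replicate 1, and 1.37 and 1.06 (PVA) and 0.517 and 0.612 CPM (PEDOT) in replicate 2 (log2 -4.09 ± 0.19, adjusted p = 5.3e-10). RET, the receptor of the enteric and sympathetic lineages, went from 19.7 to 0.985 CPM, and CHRNA3, a ganglionic acetylcholine receptor subunit, from 53.6 to 2.68 CPM. Replicate 3 did not resemble either side uniformly: CHRNA3 averaged 55.2 CPM there, as in replicate 1, and CHGA 2.49 CPM, near replicate 2.

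Of the neural crest, glia and autonomic list 10 of 18 genes were too low to test, among them the defining markers SOX10, TH and DBH. Of the 8 tested, 1 was higher and 4 were lower (median -1.21), and the higher one was HAND2, which is also a cardiac factor (0.33 ± 0.09, and 0.21 (adjusted p = 0.17) without the PVA libraries of replicate 2). The neuronal list had 0 higher by edgeR (0 at an unadjusted p under 0.05 and 0 in DESeq2) and 12 lower of 16 tested (median -1.12), including STMN2, a growth cone protein (15.8 to 4.13 CPM), and the dendritic protein MAP2 (29.7 to 13.6 CPM). A wider group of 28 tested neuropeptide, granule and cholinergic genes was assembled after values were seen: 20 were lower and 1 higher (median -2.84). It held the opioid precursor PENK (25.6 to 1.74 CPM) and the granule protein SCG2 (64.7 to 4.59 CPM), while the processing enzyme CPE did not pass (0.16 ± 0.08).

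Endodermal transcripts were likewise concentrated in replicate 1. TTR, which encodes the thyroid hormone carrier transthyretin, had 188 to 252 counts in each library of replicate 1 and 0 in all 4 libraries of replicate 2. With 3 counts over the 4 libraries as the limit that a count of 0 allows, TTR was at least 272-fold lower. GCG, proglucagon, had 114 to 217 counts per library against 0, at least 206-fold lower. These bounds cover counting error only. SERPINA1, alpha-1-antitrypsin, read 16.3 and 12.6 (PVA) and 12.3 and 10.7 CPM (PEDOT) in replicate 1, and at most 0.306 CPM in any library of replicate 2 (log2 -5.90 ± 0.32, adjusted p = 2.7e-09). PAEP, a lipocalin of glandular epithelium that is not in the endoderm list, fell from 74.7 to 2.83 CPM (log2 -4.72 ± 0.11, adjusted p = 1.8e-12). In the endoderm and hepatic list 12 of 23 genes, such as FOXA2 and FGB, were too low to test, and of the 11 tested 1 was higher and 7 were lower (median -2.15). ALB and AFP passed at low levels (1.54 to 0.0976 CPM and 0.421 to 0.0433 CPM), while APOA1 was higher, 1.52 to 2.56 CPM (log2 0.77 ± 0.24, adjusted p = 0.0246). Without the PVA libraries of replicate 2, ALB, AFP and APOA1 were -3.96 (adjusted p = 0.0646), -2.70 (adjusted p = 0.107) and 0.54 (adjusted p = 0.243), and without PEDOT replicate 2 library 1 APOA1 was 0.59 (adjusted p = 0.149). The list summed to 24.5 to 32.6 CPM per library in replicate 1, 4.15 to 5.90 CPM in replicate 2 and 5.10 to 10.6 CPM in replicate 3.

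Epithelial genes had 1 higher (EPCAM) and 8 lower of 14 tested (median -0.91). KRT19, a simple epithelial keratin, fell from 42.3 to 13.6 CPM (-1.60 ± 0.14) and ELF3, an epithelial factor, from 23.1 to 11.1 CPM, while the adhesion molecule EPCAM was slightly higher at 0.55 ± 0.19. The EPCAM call was lost without any of PEDOT replicate 1 library 3, PEDOT replicate 2 library 2, PVA replicate 1 library 3 and PVA replicate 2 library 3, at 0.48 (adjusted p = 0.0773), 0.53 (adjusted p = 0.0715), 0.49 (adjusted p = 0.0778) and 0.49 (adjusted p = 0.0872). Skeletal muscle genes had 6 higher and 1 lower (TNNT3) of 14 tested (median 0.66). PAX3, a factor of muscle and neural crest progenitors, was 1.29 CPM in replicate 1 and 10.5 CPM in replicate 2 (log2 3.02 ± 0.16, adjusted p = 3.2e-09), and ACTN3, the alpha-actinin of fast fibres, 13.4 and 71.7 CPM (log2 2.42 ± 0.09, adjusted p = 9.2e-11). TNNT3, fast troponin T, fell from 3.15 to 0.194 CPM.

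HOX genes, whose order along each cluster follows the body axis, were called in both directions. Of 10 tested, 5 were called higher, among them HOXA3, HOXB2, HOXB3 and HOXB4, and 3 lower, which were HOXB6, HOXB7 and HOXB9. No test was made of position. Refits with 1 sum or library left out lost the calls of HOXB6 in 2 (adjusted p up to 0.0597, without PEDOT replicate 1) and HOXB7 in 2 (adjusted p up to 0.0869, without PVA replicate 1). The list's median (0.37) rested on few genes and was -0.315 without PVA replicate 2 library 3. HOXB2 rose from 5.92 to 16.5 CPM (log2 1.48 ± 0.13, adjusted p = 5.9e-07) and HOXB3 from 11.3 to 18.1 CPM (log2 0.69 ± 0.11, adjusted p = 0.0003). HOXB5 differed by 0.06 ± 0.30 and did not pass. HOXB9 had 12 to 41 counts per library in replicate 1 and 0 in replicate 2 (at least 32.1-fold lower), and HOXA3 had 0 in replicate 1 and 4 to 17 in replicate 2 (at least 19.6-fold higher). HOXB7 had only 36 counts over the 4 libraries of replicate 1 and 3 over those of replicate 2. The posterior members were all at or below 1.01 CPM in replicate 1.

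Most targets and feedback inhibitors of BMP signalling were higher in replicate 2. BMP ligands act through receptors and SMAD1, SMAD5 and SMAD9, which switch on the ID genes and the inhibitors SMAD6, SMAD7 and BAMBI. The group was chosen after its values were seen, and of 16 genes tested 11 were higher and 1 lower (median 1.05), against 13% and 15.5% of all genes. ID2 read 21.4 and 22.1 (PVA) and 29 and 21.1 CPM (PEDOT) in replicate 1, and 94.9 and 103 (PVA) and 89.9 and 82.3 CPM (PEDOT) in replicate 2 (log2 1.99 ± 0.10, adjusted p = 1.2e-09). SMAD6 read 86.2 and 89.6 (PVA) and 101 and 95.7 CPM (PEDOT) in replicate 1, and 341 and 276 (PVA) and 316 and 285 CPM (PEDOT) in replicate 2 (log2 1.70 ± 0.08, adjusted p = 1.1e-09). All replicate 2 libraries exceeded all replicate 1 libraries in both genes. ID1, ID3 and ID4 differed by 1.66 ± 0.11, 1.19 ± 0.09 and 1.79 ± 0.16, SMAD7 by 1.36 ± 0.09, SMAD9 by 1.83 ± 0.09, BAMBI by 0.62 ± 0.08 and ATOH8 by 1.07 ± 0.09, and each passed. For these 9 genes replicate 3 lay between the others, with ID2 at 53.5 and SMAD6 at 161 CPM.

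Upstream genes were mixed. GREM1, a secreted BMP antagonist made by stroma, fell from 4.84 to 0.314 CPM (log2 -3.94 ± 0.34, adjusted p = 5e-07), and BMP4 from 2.57 to 0.844 CPM (-1.61 ± 0.25). GDF2, which encodes BMP9, was higher at 2.06 and 6.10 CPM (1.52 ± 0.23), as was its co-receptor ENG (1.10 ± 0.10). The ligands BMP5 and BMP7 did not pass (297 to 263 CPM, -0.18 ± 0.08, and 258 to 225 CPM, -0.20 ± 0.08), and the receptor BMPR2 was lower (-0.48 ± 0.08). Over 17 ligands, receptors and SMADs 3 were higher and 5 lower (median -0.18). BMP5 passed without PVA replicate 1 library 3, at -0.25 (adjusted p = 0.0387), and BMP7 without PEDOT replicate 1 library 2, at -0.28 (adjusted p = 0.0464).

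The SMAD6 promoter is shown because it is the only one of these 9 genes' RefSeq promoters (250 bases before to 50 after the start, GRCh38.p14) that holds the SMAD-binding palindrome GTCTAGAC, which was searched on both strands and occurs in 0.202% of 35116 promoters. Capitals mark the palindrome, on the forward strand.
SMAD6 (chr15:66701986-66702285): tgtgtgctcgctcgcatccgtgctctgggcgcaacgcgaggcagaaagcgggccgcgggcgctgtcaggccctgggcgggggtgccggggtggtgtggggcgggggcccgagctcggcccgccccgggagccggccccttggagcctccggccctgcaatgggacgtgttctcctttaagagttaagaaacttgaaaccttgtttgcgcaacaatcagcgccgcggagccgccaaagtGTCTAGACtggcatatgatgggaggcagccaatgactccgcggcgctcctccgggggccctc
The match is a description of these letters and not a bound site.

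**Figure D3:**
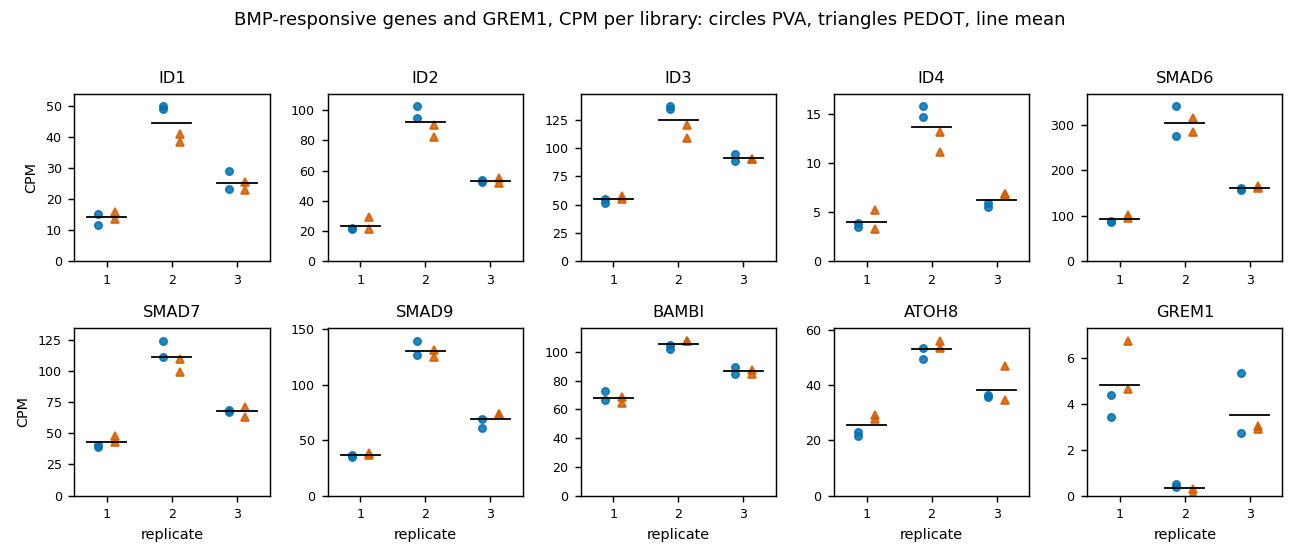
CPM in each library against replicate number for 9 BMP-responsive genes and the antagonist GREM1; blue circles are PVA libraries, orange triangles PEDOT libraries and black lines means of 4 libraries. The 9 responsive genes are lowest in replicate 1 and highest in replicate 2, and GREM1 is lowest in replicate 2. Means of the PVA and PEDOT sums are 23.2 and 92.4 CPM for ID2, and 0.314 CPM for GREM1 in replicate 2.

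Most interferon-induced genes were lower in replicate 2. The list had 0 higher by edgeR (1 at an unadjusted p under 0.05 and 0 in DESeq2) and 22 lower of 29 tested (median -0.80). OAS3, an antiviral enzyme, read 13.3 and 11.2 (PVA) and 2.67 and 2.11 CPM (PEDOT) in replicate 1, and 0.558 and 0.456 (PVA) and 0.302 and 0.131 CPM (PEDOT) in replicate 2 (log2 -4.22 ± 0.30, adjusted p = 6.5e-08). RSAD2, another antiviral gene, read 16.9 and 17.5 (PVA) and 5.67 and 6.11 CPM (PEDOT) in replicate 1, and 2.69 and 3.19 (PVA) and 2.59 and 1.53 CPM (PEDOT) in replicate 2 (log2 -2.08 ± 0.20, adjusted p = 1.8e-06). In both genes the PVA libraries of replicate 1 stood above its PEDOT libraries. For MX1, chosen after its values were seen, the difference was -3.55 on PVA and -1.62 on PEDOT (interaction adjusted p = 0.0117). The list's median was -1.11 on PVA and -0.44 on PEDOT. Inflammatory genes had 2 higher (VCAM1 and SOD2) and 8 lower of 14 tested (median -0.73). The chemokine CCL2 was lower (12.8 to 2.81 CPM), as was the adhesion molecule ICAM1 (22.6 to 5.11 CPM), but VCAM1, another adhesion molecule, was higher (72.1 to 149.8 CPM, log2 1.06 ± 0.08, adjusted p = 8.3e-08). Immediate early genes had 2 higher (EGR1 and NR4A1) and 8 lower of 22 tested (median -0.27). Heat shock and unfolded protein genes had 1 higher (DNAJB1) and 4 lower (HSP90B1, TRIB3, ASNS and CHAC1) of 22 tested (median -0.00459). For heat shock this was 4.55% higher and 18.2% lower, against 13% and 15.5% of all genes. The 12 refits lost the calls of SOD2 in 1 (adjusted p up to 0.0582, without PVA replicate 2), EGR1 in 2 (adjusted p up to 0.0907, without PEDOT replicate 1), NR4A1 in 1 (adjusted p up to 0.0574, without PVA replicate 2), DNAJB1 in 7 (adjusted p up to 0.321, without PVA replicate 2), ASNS in 8 (adjusted p up to 0.348, without PEDOT replicate 1), CHAC1 in 2 (adjusted p up to 0.0571, without PEDOT replicate 1) and HSP90B1 in 1 (adjusted p up to 0.0575, without PEDOT replicate 2).

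Most imprinted growth genes were lower as well, with 1 higher (SNRPN) and 10 lower of 16 tested (median -0.81). IGF2, a fetal growth factor, read 3070 and 3598 (PVA) and 2981 and 4412 CPM (PEDOT) in replicate 1, and 782 and 995 (PVA) and 775 and 719 CPM (PEDOT) in replicate 2 (log2 -2.11 ± 0.12, adjusted p = 3.4e-09). H19, the noncoding RNA beside it, went from 79 to 14 CPM (-2.49 ± 0.09), and DLK1, a Notch-related regulator, from 222 to 25.9 CPM (-3.06 ± 0.14). SNRPN, the member called higher, lost its call in 4 refits (adjusted p up to 0.295, without PVA replicate 1).

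Clustered protocadherins, adhesion genes that lie side by side on chromosome 5 and each have a promoter, were lower along most of the cluster. Between 140794852 and 141512981 (hg38, as in the deposited table), 7 of 14 alpha genes, 13 of 16 beta genes and 10 of 22 gamma genes were called lower, against 15.5% of all genes, and 1 alpha gene was called higher. The medians were -0.67, -0.66 and -0.42. PCDHB14 was at 33.2 and 20.8 CPM (log2 -0.68 ± 0.09, adjusted p = 4.6e-05), and PCDHB15 at 22.2 and 11.6 CPM (log2 -0.93 ± 0.11, adjusted p = 7.6e-06). PCDHB9 did not pass (-0.15 ± 0.11), and PCDHA12 was the one called higher (12.3 to 16.9 CPM, log2 0.46 ± 0.12, adjusted p = 0.0076), though 0.34 (adjusted p = 0.0764) without the PVA libraries of replicate 1. Replicate 3 stood near replicate 1 in PCDHB14 at 31.7 CPM. The cluster was chosen after its values were seen, and its alpha and gamma genes share exons at their ends, where reads match several genes and are not counted.

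The promoters of most alpha and beta genes carry a shared element around the letters CGCT, shown here for members that differ in response. In the RefSeq promoters the beta form GGTGGCGCT, searched on both strands, was in 13 of 14 beta genes and in 0.501% of all promoters, and the alpha form GATGTCGCT in 9 of 13 alpha genes and 0.105% of all. Of 20 gamma genes, 0 had either form. CGCT itself is part of both forms and was in 70.0% of all promoters. Each line is 61 bases of the forward strand of GRCh38.p14 with the longer form in capitals.
PCDHB2 (chr5:141094529-141094589): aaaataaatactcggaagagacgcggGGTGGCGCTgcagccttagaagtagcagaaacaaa
PCDHB8 (chr5:141177762-141177822): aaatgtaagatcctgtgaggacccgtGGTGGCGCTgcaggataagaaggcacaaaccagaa
PCDHB9 (chr5:141187059-141187119): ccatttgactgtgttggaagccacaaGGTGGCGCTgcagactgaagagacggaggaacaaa
PCDHB14 (chr5:141223248-141223308): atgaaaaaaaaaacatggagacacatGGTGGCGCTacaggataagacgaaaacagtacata
PCDHB15 (chr5:141245299-141245359): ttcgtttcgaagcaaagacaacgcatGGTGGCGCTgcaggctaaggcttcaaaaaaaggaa
PCDHA4 (chr5:140806964-140807024): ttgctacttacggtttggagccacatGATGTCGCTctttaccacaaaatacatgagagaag
PCDHA10 (chr5:140855826-140855886): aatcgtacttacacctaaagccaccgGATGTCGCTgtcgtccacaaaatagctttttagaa
PCDHA12 (chr5:140875229-140875289): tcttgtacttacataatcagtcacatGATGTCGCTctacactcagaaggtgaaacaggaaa
The form in capitals is the same in PCDHB9, which did not pass, as in its called neighbours, and the same in PCDHA12, which was higher, as in PCDHA4 and PCDHA10, which were lower (-0.58 ± 0.11 and -0.75 ± 0.13).

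**Figure D4:**
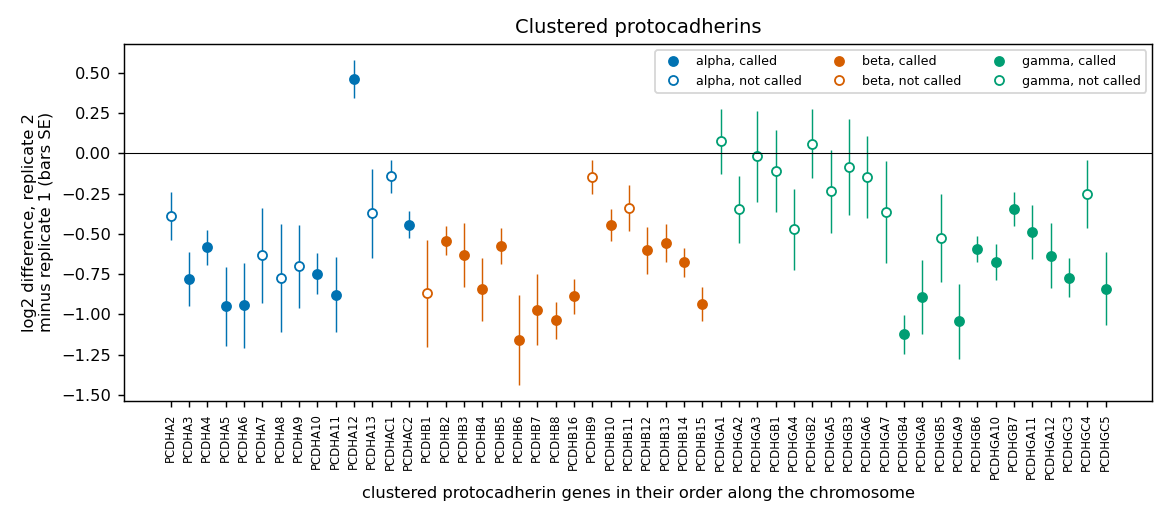
Log2 difference between replicate 2 and replicate 1 (bars, SE) for the 52 clustered protocadherin genes tested, in their order along chromosome 5; filled points passed the test. Nearly all filled points lie below 0, PCDHA12 lies above it at 0.46, and the gamma genes nearest the beta cluster did not pass.

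Other large single differences were of diverse kinds. Among genes of at least 5 CPM with separated libraries, COLEC12, a scavenger receptor, was highest relative to replicate 1, rising from 0.985 to 20.8 CPM (log2 4.41 ± 0.17, adjusted p = 1.1e-10). DRD1, the dopamine D1 receptor, followed at 1.45 and 16.4 CPM (log2 3.51 ± 0.15, adjusted p = 3e-10). SFRP2, a secreted Wnt modulator, read 4.63 CPM in replicate 1, 33.2 in replicate 2 and 3.69 in replicate 3. CYP1A1, a detoxifying enzyme induced through the aryl hydrocarbon receptor, was 5.62 and 29.6 CPM. MOXD1, PREX2, MCOLN3 and SHD were higher by 2.58 ± 0.12, 2.60 ± 0.12, 2.88 ± 0.11 and 2.87 ± 0.10. At the other end were SPON2 (51.4 to 1.07 CPM) and the peptidases DPP4 (10.5 to 0.324 CPM) and MME (31.6 to 1.13 CPM). So were the bone and wound glycoprotein SPP1 (27.5 to 0.619 CPM) and TGFBI, a matrix protein induced by TGF-beta (193 to 5.59 CPM). SPP1 is on the matricellular and matrix glycoprotein list above, and TGFBI is in the TGF-beta group described last.

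The replicate difference was similar on the scaffolds for most genes and unlike for a few. Across 11770 genes at 5 CPM or more, the difference on PVA and that on PEDOT correlated at r = 0.89, as a description over genes. A scaffold by replicate interaction, fitted on the 8 libraries with technical error only, passed in 82 of 20113 genes (0.408%), and 35 of them had opposite signs. With 1 library left out the interaction count ran from 11 (without PEDOT replicate 2 library 1) to 248 (without PEDOT replicate 1 library 3). MKI67, the proliferation marker, read 55.9 and 70.7 (PVA) and 21.6 and 27.6 CPM (PEDOT) in replicate 1, and 52.2 and 46.5 (PVA) and 42.6 and 35.6 CPM (PEDOT) in replicate 2. It was lower in replicate 2 on PVA and higher on PEDOT (log2 -0.35 and 0.64, interaction adjusted p = 0.0163), and its fitted difference was 0.08 ± 0.22. Without the PVA libraries of replicate 1 this was 0.78 (adjusted p = 2.2e-06), and without the PEDOT libraries of replicate 1 -0.49 (adjusted p = 0.00157). TOP2A did the same (log2 -0.30 and 0.55, interaction adjusted p = 0.033). The median of the 36 cell cycle genes was -0.29 on PVA and 0.53 on PEDOT. Of 36 tested, the joint fit had 0 lower by edgeR (0 at an unadjusted p under 0.05 and 0 in DESeq2). It had 3 higher (MCM2, MCM4 and CDKN3), or 8.33% against 13% of all genes (median 0.10). None of these 3 calls was kept in all 12 refits, with losses for MCM2 in 5 (adjusted p up to 0.183, without PEDOT replicate 1), MCM4 in 7 (adjusted p up to 0.227, without PVA replicate 1 library 2) and CDKN3 in 8 (adjusted p up to 0.384, without PEDOT replicate 1). ACTA1, skeletal actin, chosen after its values were seen, differed by 0.54 on PVA and -0.69 on PEDOT (interaction adjusted p = 6.2e-05), and for MYL2 the PEDOT difference minus the PVA difference was -0.93 ± 0.12 (adjusted p = 0.00245). DCN fell by 2.77 on PVA and 4.02 on PEDOT on the log2 scale (adjusted p = 0.0358).

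**Figure D5:**
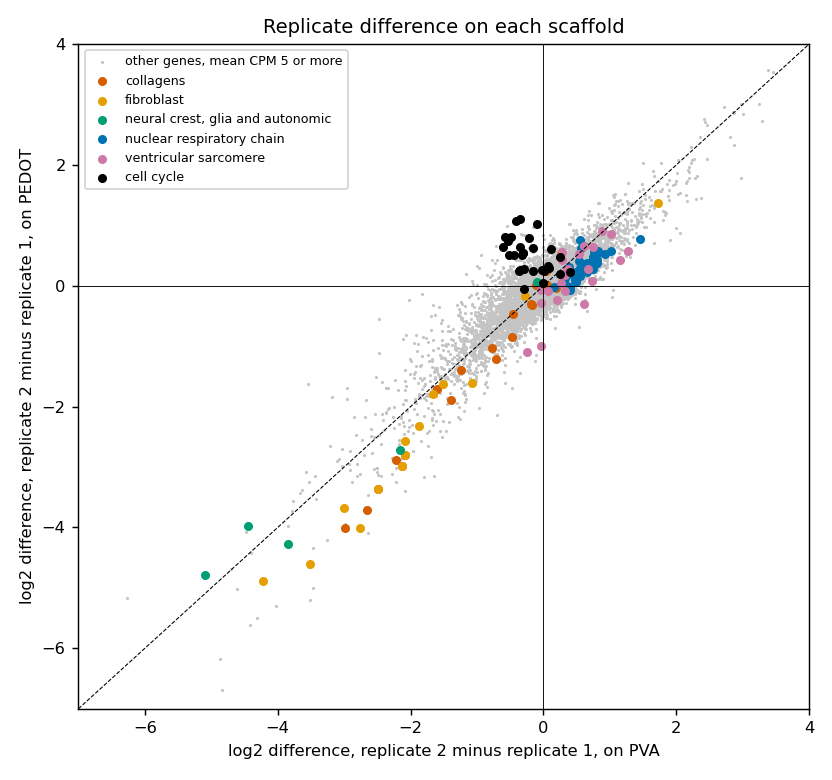
Log2 difference between replicate 2 and replicate 1 on PVA (x axis) and on PEDOT (y axis) for genes with a mean of 5 CPM or more; colours mark members of 6 lists, and the dashed line marks equal differences. Most fibroblast members lie below 0 on both axes, and most respiratory chain members above 0 on both. Many cell cycle members are below 0 on PVA and above 0 on PEDOT. Medians over all tested members, plotted or not, are -1.78 and -2.38 for the fibroblast list and -0.29 and 0.53 for the cell cycle list.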

How the data were processed

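Ribodepleted total RNA of cells detached with trypsin was sequenced in 12 libraries, per the labels' protocols. The authors deposited raw counts per gene name, made from read pairs with featureCounts 2.0.1 on GENCODE release 33 in reversely stranded mode without multi-mapping reads, per the file headers. The submitters' processing notes name STAR and hg38; the aligner's version is not given in the sources used here. Exon lengths in the same table are those of the authors' gene models, per the file headers.

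Technical libraries were summed to 6 sums. No pair of technical libraries agreed within sampling noise. The fit used edgeR 4.0.16 in R 4.3.3. After filterByExpr (a count of at least 10, 15 in total) and TMM factors, glmQLFit took scaffold and replicate number as terms, and two-sided p-values from glmQLFTest were adjusted by Benjamini-Hochberg over 22262 genes. An SE is the log2 difference divided by the square root of F. The fit was tested on simulated data. GC content came from GENCODE 29 transcripts, matched by name for 98.6% of the genes used.

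The comparison, the 37 gene lists, the panel and the tests were chosen with earlier results of these data known. Named genes are the 15 largest differences per direction (mean of 5 CPM or more, separated libraries), up to 4 members of smallest p per list, and a panel of 43. The BMP, neuropeptide, ribosomal, protocadherin, and myoglobin and creatine kinase groups were chosen after their values were seen. So were HOX members HOXB4, HOXB5, HOXB6 and HOXB7, members named in brackets beside counts of 5 or fewer, PDGFRA, TWIST1, ACTA1 and MX1. A few genes are not reported by name here. Alternatives are described in the closing section.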

Additional observations from a re-analysis of the deposited data

Results flagged for a closer look

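Single libraries were checked for 227 genes named in the report, in the 4 libraries of each replicate. In 22 of 447 such groups (4.92%) the highest or lowest library was separated from its nearest neighbour by more of the range than Dixon's 95% critical value allows. For 4 independent libraries of 1 kind, chance alone gives about 1 in 20. Each group here joined technical libraries of 2 scaffolds, so the share cannot be read against that rate. A library stood apart for ACTN3 in replicate 1 (10.9 CPM in PVA library 3, the lowest, against 13.8 to 14.3 CPM in the others), ASNS in replicate 1 (1.64 CPM in PVA library 3, the lowest, against 2.51 to 2.67 CPM in the others) and BMP5 in replicate 1 (248 CPM in PVA library 3, the lowest, against 307 to 313 CPM in the others). So did 1 library for BMP7 in replicate 1 (301 CPM in PEDOT library 3, the highest, against 237 to 247 CPM in the others), BMPR2 in replicate 1 (321 CPM in PVA library 3, the lowest, against 354 to 356 CPM in the others) and CD34 in replicate 1 (0.398 CPM in PVA library 3, the highest, against 0.266 to 0.283 CPM in the others). Likewise for HOXB3 in replicate 1 (9.84 CPM in PVA library 2, the lowest, against 11.6 to 11.9 CPM in the others), HOXB7 in replicate 1 (0.570 CPM in PVA library 2, the highest, against 0.249 to 0.302 CPM in the others) and ID2 in replicate 1 (29 CPM in PEDOT library 2, the highest, against 21.1 to 22.1 CPM in the others). A gap of this kind was seen for MT-ND1 in replicate 1 (376 CPM in PVA library 3, the highest, against 254 to 263 CPM in the others). The 4 libraries were also uneven for ATP5MC1 in replicate 2 (136 CPM in PVA library 2, the highest, against 108 to 111 CPM in the others), CDH5 in replicate 2 (0.494 CPM in PVA library 3, the highest, against 0.0431 to 0.0508 CPM in the others) and CKM in replicate 2 (265 CPM in PEDOT library 1, the highest, against 244 to 246 CPM in the others). Further cases were ENG in replicate 2 (72 CPM in PEDOT library 2, the lowest, against 86 to 87.9 CPM in the others), FN1 in replicate 2 (400.1 CPM in PEDOT library 1, the lowest, against 563 to 595 CPM in the others) and HAND2 in replicate 2 (323 CPM in PVA library 3, the highest, against 294 to 298 CPM in the others). A library stood apart for HOXA3 in replicate 2 (0.203 CPM in PVA library 2, the lowest, against 0.646 to 0.733 CPM in the others), KCNK3 in replicate 2 (16.4 CPM in PEDOT library 1, the lowest, against 16.9 to 17 CPM in the others) and NPR2 in replicate 2 (26.7 CPM in PVA library 2, the lowest, against 29.9 to 30.5 CPM in the others). So did 1 library for SFRP2 in replicate 2 (28 CPM in PEDOT library 2, the lowest, against 34.4 to 35.4 CPM in the others), THBS2 in replicate 2 (1.55 CPM in PEDOT library 1, the lowest, against 2.54 to 2.69 CPM in the others) and VIP in replicate 2 (0.302 CPM in PEDOT library 1, the lowest, against 1.42 to 1.57 CPM in the others).

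For 14 named genes the difference between replicates differed between the scaffolds (interaction in edgeR on 8 libraries, adjusted p under 0.05, technical error only). The PEDOT difference minus the PVA difference was negative for RUNX1 (-1.35), DCN (-1.22), ACTA1 (-1.19), TGFBI (-1.16), TNC (-1.16), COL15A1 (-0.95), MYL2 (-0.93), MYH7 (-0.81), DLK1 (-0.77), TNNI3 (-0.67) and XIRP2 (-0.65) on the log2 scale. It was positive for TOP2A (0.90), MKI67 (1.04) and MX1 (1.93). The causes of these differences were not tested.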

How the results depend on the processing

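The count of genes called ranged from 4510 to 8307 under other scalings, filters, tools and sample units, against 6361. Leaving out each of the 4 sums or 8 libraries gave 3549 to 6365 calls, 1365 to 3121 higher and 2184 to 3381 lower, with the fewest without the PVA sum of replicate 2. A minimum fold of 1.5 in glmTreat left 1762 genes, 463 higher and 1299 lower. No called gene changed sign under any of the 21 refits of the joint comparison. Scaling by library size moved the median of all genes to -0.04. The interaction count, 82, was 152 with upper-quartile scaling, 218 by library size, 441 with every gene of 1 count, 41 at a mean of 5 CPM and 136 in DESeq2, and 11 to 248 with 1 library left out.

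List medians of the ventricular sarcomere (0.219 to 0.368), nuclear respiratory chain (0.330 to 0.565), fibroblast (-2.55 to -1.86) and neural crest, glia and autonomic lists (-2.83 to -1.07) kept their signs with 1 sum or library left out. The last was -0.138 with every gene of 1 count and -3.29 at a mean of 5 CPM, where other members are tested. Smaller medians changed sign: HOX (-0.636 to 0.779 with sums or libraries left out and -0.0727 with every gene with at least 1 count), pacemaker and nodal (0.139 at a mean of at least 5 CPM), cartilage and bone (-0.150 to 0.394 with sums or libraries left out and -0.00360 at a mean of at least 5 CPM), fetal and atrial contractile (-0.158 to 0.104 with sums or libraries left out and 0.111 within PVA alone), ventricular identity (-0.140 to 0.0660 with sums or libraries left out), mitochondrially encoded (-0.306 to 0.0123 with sums or libraries left out), endothelial and endocardial (0.0731 within PVA alone). With sums or libraries left out, ACTA1 ranged from -0.821 to 0.666, MKI67 ranged from -0.494 to 0.782 and TOP2A ranged from -0.415 to 0.650, lowest or highest without a sum of replicate 1. The causes were not tested. No paired analysis was possible because the replicate number is itself the comparison; the scaffold was a term instead. Having 2 sums per replicate limits every p-value here, and genes under a few counts per library are not resolved.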

Other observations

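TGF-beta pathway genes, gathered after values were seen, were mostly lower in replicate 2: of 19, 16 were lower and 1 higher (median -0.94). The ligands TGFB1 and TGFB3 fell from 76.5 to 34.6 CPM (-1.14 ± 0.10) and from 23.4 to 12.2 CPM (-0.95 ± 0.14), while TGFB2 did not pass (-0.02 ± 0.12). TIMP1, a metalloproteinase inhibitor, fell from 280.2 to 40.6 CPM (-2.81 ± 0.14). FST, which binds activins, was the 1 called higher (1.49 ± 0.24), and SMAD3 did not pass (0.02 ± 0.08). The stromal share of counts was lower too, and its part in these values was not tested.

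Protocadherins outside the cluster were lower too, with 8 of 10 called lower (median -0.81), among them PCDH10 (38.9 to 6.72 CPM) and PCDH9 (74 to 39.6 CPM). Chromosome medians over genes of at least 1 CPM ranged from -0.15 on chromosome 18 to 0.11 on chromosome 19. Lists not described above had 6 higher and 4 lower of 19 tested for cholesterol synthesis (median 0.17), 5 higher (NPPA, XIRP2, FLNC, NPR2 and NPR3) and 2 lower (NPR1 and CORIN) of 12 tested for natriuretic peptides and strain genes (median -0.01), 6 higher and 4 lower (SOX9, MATN1, MATN3 and COMP) of 13 tested for cartilage and bone (median 0.33), 2 higher (LIN28B and SALL4) and 1 lower (TDGF1) of 4 tested for pluripotency (median 0.32) and 0 higher by edgeR (0 at an unadjusted p under 0.05 and 0 in DESeq2) and 3 lower (TYROBP, CD34 and RUNX1) of 5 tested for blood and macrophage genes (median -1.20). Leaving out sums or libraries in 12 refits lost the calls of MATN1 in 6 (adjusted p up to 0.115, without PVA replicate 2), MATN3 in 8 (adjusted p up to 0.297, without PVA replicate 2), CD34 in 8 (adjusted p up to 0.198, without PVA replicate 1), LIN28B in 1 (adjusted p up to 0.11, without PVA replicate 2) and FLNC in 4 (adjusted p up to 0.12, without PVA replicate 1).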
